A study of Mus musculus with 8 samples.

Results

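The Cyp3a genes encode cytochrome P450 enzymes of the endoplasmic reticulum that oxidize drugs, steroids and bile acids, and the members taken here were the 8 symbols Cyp3a11, Cyp3a13, Cyp3a16, Cyp3a25, Cyp3a41a, Cyp3a41b, Cyp3a44 and Cyp3a59 among the 24411 genes of a liver count table. They were taken by symbol, and the rule set no threshold on a measured value. Cyp3a57, the other Cyp3a symbol of the table, was kept beside them as a non-member. Liver RNA of neonatal mice was sequenced in 8 libraries, 2 in each of 4 groups, to compare triclosan (TCS), an antimicrobial compound of consumer products, with vehicle in mice with and without hepatocyte ATF4, a transcription factor of the integrated stress response. The groups were hUGT1/Atf4F/F mice given vehicle, hUGT1/Atf4F/F mice given TCS, hUGT1/Atf4ΔHep mice given vehicle and hUGT1/Atf4ΔHep mice given TCS. All mice, controls included, carried the human UGT1 locus in place of the mouse Ugt1 locus (hUGT1 in a Ugt1-/- background), on C57BL/6. In hUGT1/Atf4ΔHep mice the floxed Atf4 gene was deleted by Cre under the albumin promoter, which acts in hepatocytes, and in hUGT1/Atf4F/F mice it was floxed and intact. TCS was given by mouth at 50 mg/kg on 4 consecutive days. The methods give an age of 14 days for the mice that were sequenced and 10 days for neonates at the start of oral dosing. Each library held the pooled RNA of 2 mice of either sex, so that 4 mice stood behind each group and no single animal can be seen.

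In mice the family changes its makeup with age and sex. Cyp3a16 is known as a form of fetal and neonatal liver, Cyp3a41 and Cyp3a44 as forms that become typical of adult female liver, and Cyp3a11, Cyp3a25 and Cyp3a13 as forms of adult liver, with Cyp3a11 the member most used as a sign of induction. Induction runs mainly through the nuclear receptors PXR (Nr1i2) and CAR (Nr1i3), which bind DNA with RXR at pairs of short hexamers, most of them in enhancers far from the start of the gene, while HNF4A and FOXA factors sustain the basal level in hepatocytes. No adult liver and no earlier age was sequenced here, so the labels neonatal and adult could not be checked against these data.

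All 8 members lie on chromosome 5, and all 8 are annotated in GENCODE M21 with 13 exons and a coding sequence of 503 or 504 residues. Cyp3a13 stands apart, at chr5:137892932-137921619, and the others form a cluster from Cyp3a16 at chr5:145436309-145469723 to Cyp3a59 at chr5:146079257-146113287 (GRCm38, chromosome coordinates of whole genes). Stretches of 91 bases upstream of 6 members are given to show how the cluster falls into sequence groups before the levels are read. They run from 200 to 110 bases before the gene start in RefSeq promoter windows of GRCm38.p6 and are written 5′ to 3′ on the strand of the gene, with capitals for 3 motifs: TGTTTAC, a core of FOXA sites, and AGGTCA and AGTTCA, hexamers of nuclear receptor sites, which read TGACCT and TGAACT on the other strand.
Cyp3a11 (chr5:145879964-145880054, minus strand): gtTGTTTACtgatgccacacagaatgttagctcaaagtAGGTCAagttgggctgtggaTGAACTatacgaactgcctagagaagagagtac
Cyp3a16 (chr5:145469833-145469923, minus strand): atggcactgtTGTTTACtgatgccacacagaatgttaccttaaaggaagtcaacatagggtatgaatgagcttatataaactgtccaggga
Cyp3a44 (chr5:145805984-145806074, minus strand): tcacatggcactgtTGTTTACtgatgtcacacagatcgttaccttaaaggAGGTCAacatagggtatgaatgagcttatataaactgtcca
Cyp3a41a (chr5:145720246-145720336, minus strand): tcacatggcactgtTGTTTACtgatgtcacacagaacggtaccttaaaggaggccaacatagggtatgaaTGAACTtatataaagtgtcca
Cyp3a25 (chr5:146009728-146009818, minus strand): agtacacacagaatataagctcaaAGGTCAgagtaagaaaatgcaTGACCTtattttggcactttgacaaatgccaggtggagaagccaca
Cyp3a59 (chr5:146079058-146079148, plus strand): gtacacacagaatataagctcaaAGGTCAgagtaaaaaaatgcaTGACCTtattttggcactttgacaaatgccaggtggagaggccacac

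All 8 members matched a RefSeq promoter window, and Cyp3a25 had 2, of which the first was read. Over 250 bases before the start, the windows of Cyp3a16 and Cyp3a44 were 92.9% identical and those of Cyp3a41a and Cyp3a44 94.4%. The window of Cyp3a11 was 76.6% identical to that of Cyp3a16 and 52.7% to that of Cyp3a25. Cyp3a25 and Cyp3a59 shared 94.8%. TGTTTAC stood in Cyp3a11, Cyp3a16, Cyp3a41a, Cyp3a41b and Cyp3a44, which is 5 of the 9 Cyp3a windows when Cyp3a57 is counted, beside 3.17% of 32851 windows of the same length, both strands searched. AGGTCA stood in Cyp3a11, Cyp3a44, Cyp3a25, Cyp3a59 and Cyp3a57, again 5 of 9, beside 14.02% of all windows, and in the last 3 of these genes it occurred once on each strand. AGTTCA stood in Cyp3a11, Cyp3a41a and Cyp3a41b, beside 11.8% of all windows. None of the 9 windows held 2 of these hexamers as a direct repeat spaced by 1, 3 or 4 bases or as an everted repeat spaced by 6 or 8 bases, arrangements found in at most 0.067% of all windows. These matches describe letters in a short window and were not tied to the levels by any test.

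The paralogs are alike enough that part of their reads cannot be assigned to 1 gene. Transcripts were broken into words of 75 bases, and a word was taken as telling only where no other annotated transcript of another gene held it. Of the words, 96.3% were telling in Cyp3a11, 98.4% in Cyp3a16, 100% in Cyp3a13, 88.8% in Cyp3a25, 89.2% in Cyp3a59 and 89.0% in Cyp3a44. Cyp3a25 and Cyp3a59 shared 216 words of the 1926 in Cyp3a25. Cyp3a41a and Cyp3a41b differed at 2 bases of their coding sequence and shared 1809 words. With words shared with other genes also set aside, 94 telling words, 4.73%, were left to Cyp3a41a and 181, 9.10%, to Cyp3a41b. How the counts treated reads that match several genes is not given in the sources used here, so the values of these last genes, and the split of the reads between them, are uncertain.

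**Figure D1:**
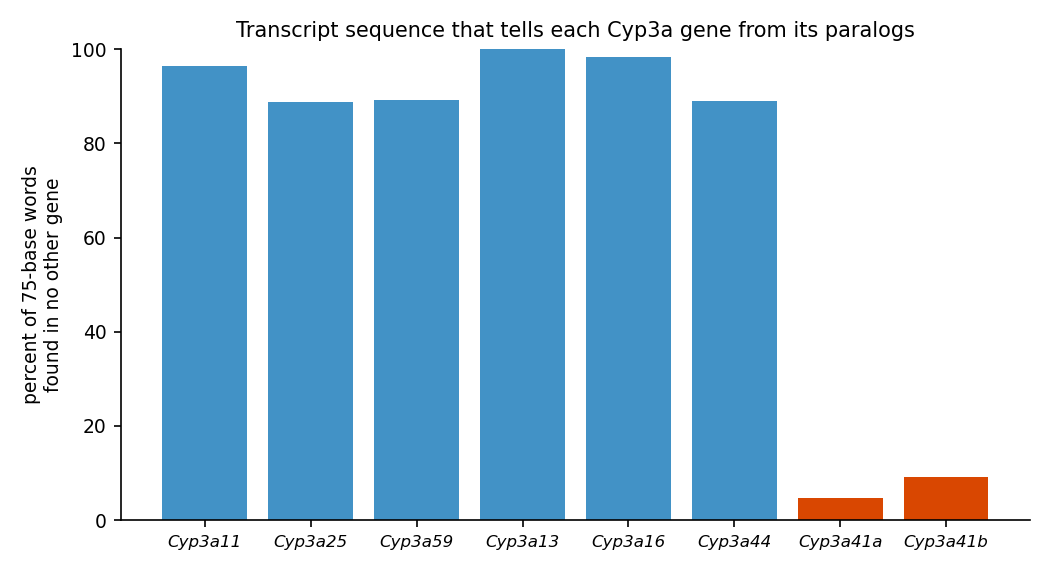
Percent of 75-base words of each member's transcript that occur in no other gene, on a scale from 0 to 100. The bars stand between 88.8% and 100% for 6 members, whereas those of Cyp3a41a and Cyp3a41b, in orange, stand at 4.73% and 9.10%.

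The libraries held 11624143 to 25573210 counts, of which the members took 0.341% to 0.636%. Atf4 itself, the targeted gene, read 58.6 to 62.8 CPM (a count relative to the library total after TMM scaling) in the 4 hUGT1/Atf4F/F libraries and 17.4 to 19.7 CPM in the 4 hUGT1/Atf4ΔHep libraries, which matched the labels. None of the 8 defining markers of hepatocytes was at 0. Their sum was lower with TCS in both genotypes without overlap. It was 154953 to 160545 CPM under vehicle and 131038 to 147289 CPM under TCS in hUGT1/Atf4F/F mice. In hUGT1/Atf4ΔHep mice it was 148528 to 157400 CPM under vehicle and 134937 to 144332 CPM under TCS. Of the 13633 genes that passed the filter on low counts, 7.65% likewise lay wholly lower in both genotypes. The part of the hepatocyte markers in the values of the members was not tested. The sex makeup of the pools was uneven: Xist, transcribed from the inactive X chromosome of females, read 23.2 and 1.05 CPM under vehicle and 718 and 758 CPM under TCS in hUGT1/Atf4F/F mice, where sex makeup thus moved with treatment. Among hUGT1/Atf4ΔHep libraries 1 of 2 in each group was high, with 778 and 4.50 CPM under vehicle and 0.346 and 753 CPM under TCS. In bulk RNA, fewer cells of a type and less RNA per cell cannot be told apart.

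Without TCS, Cyp3a11 was the most abundant member. Levels between genes are compared per kb of 1 coding transcript. In the hUGT1/Atf4F/F vehicle group Cyp3a11 stood at 949 ± 49.2 CPM per kb (SD, n = 2), and it made up 57.6% of the summed level of the members. Cyp3a16, the fetal and neonatal form, followed at 269 ± 2.64 CPM per kb, and Cyp3a25 at 239 ± 4.77 CPM per kb. These neighbours did not overlap between libraries, but per kb of telling words they read 285 ± 2.80 and 280 ± 5.57 CPM per kb, and their libraries overlapped. Cyp3a44 stood at 71.7 ± 0.783 CPM per kb. Cyp3a59 followed at 59.0 ± 4.49 and Cyp3a13 at 52.9 ± 0.569 CPM per kb, with the libraries of Cyp3a59 at 55.8 and 62.2 and those of Cyp3a13 at 53.3 and 52.5 CPM per kb. Cyp3a41a was far below, at 6.08 ± 3.55 CPM per kb, whereas per kb of telling words it read 188 and 78.2 CPM per kb in the libraries, on both sides of Cyp3a44 at 83.1 and 84.4 CPM per kb, so that its place in the order rests on how shared reads were counted. Per kb of all exonic bases annotated to the gene, a choice made after seeing the data, Cyp3a11 read 437 ± 22.6 CPM per kb and was still first. Cyp3a57 read 0.276 ± 0.0298 CPM per kb, below every member with a count.

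Cyp3a41b was listed at 0 counts in all 8 libraries, and it was the 1 member that did not pass the filter on low counts. At these depths a count of 0 allows up to 3 counts, which is 0.115 to 0.260 CPM for a library, counting error only. Cyp3a41a held 112 to 1758 counts, and nearly all of its sequence is shared with Cyp3a41b. Cyp3a41b has 181 telling words, beside 94 in Cyp3a41a, and yet was given no count. How shared reads were counted is not known here, so the 0 alone does not show that Cyp3a41b was silent. The sum of both genes equals the value of Cyp3a41a in each library.

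**Figure D2:**
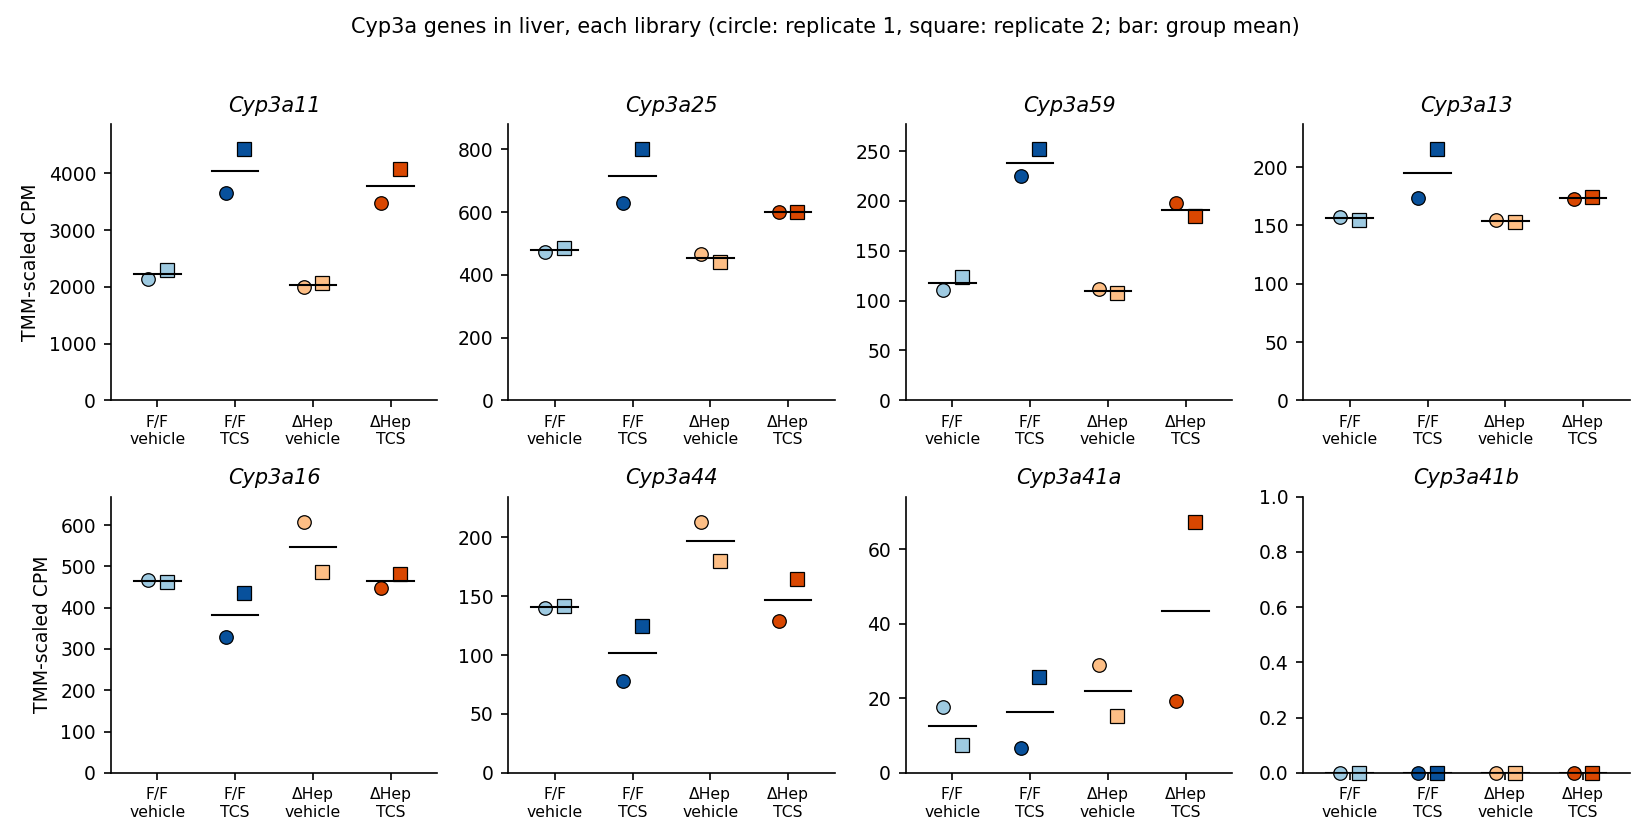
TMM-scaled CPM of each member (vertical axes from 0, each with its own scale) in the 4 groups, with a circle for replicate 1, a square for replicate 2 and a bar for the group mean. Cyp3a11 moves from 2142 and 2305 CPM to 3657 and 4428 CPM with TCS in hUGT1/Atf4F/F mice, Cyp3a16 and Cyp3a44 lie lower with TCS in both genotypes, and Cyp3a41b is at 0 throughout.

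With TCS, Cyp3a11 and Cyp3a59 rose in both genotypes. The call was an adjusted p under 0.05 from edgeR's quasi-likelihood test, with the Benjamini-Hochberg correction taken over the 13633 genes tested. By this rule 2 of the 7 members tested were called in hUGT1/Atf4F/F mice, both higher, where 0.557% of all genes tested were called and 0.513% were called higher. The same 2 of 7 were called in hUGT1/Atf4ΔHep mice, both higher, beside 0.675% of all genes and 0.616% higher. With DESeq2, Cyp3a25 joined them, for 3 of 7 members in each genotype, beside 1.22% of all genes in hUGT1/Atf4F/F mice and 1.62% in hUGT1/Atf4ΔHep mice. In the average of both genotypes edgeR called 3 of 7 members, Cyp3a11, Cyp3a25 and Cyp3a59, all higher, beside 2.59% of all genes and 2.02% higher, and DESeq2 called 4, with Cyp3a13 added, beside 3.58%. The median log2 fold change of the 7 members was 0.35 in hUGT1/Atf4F/F mice and 0.40 in hUGT1/Atf4ΔHep mice, beside -0.0036 and -0.0054 for all genes tested.

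Cyp3a11, whose enzyme is the best known drug-metabolizing CYP3A of mouse liver, read 2142 and 2305 CPM in the hUGT1/Atf4F/F vehicle libraries and 3657 and 4428 CPM in the TCS libraries. In the hUGT1/Atf4ΔHep libraries it read 1999 and 2065 CPM under vehicle and 3488 and 4074 CPM under TCS. Every TCS library stood above every vehicle library, in both genotypes. The rise was 1.82-fold in hUGT1/Atf4F/F mice (95% interval 1.54 to 2.14, log2 fold change 0.86 ± 0.10 SE, adjusted p = 0.00783) and 1.86-fold in hUGT1/Atf4ΔHep mice (95% interval 1.58 to 2.19, log2 fold change 0.90 ± 0.10 SE, adjusted p = 0.00653). With the sex makeup of the pools as a covariate the log2 fold change in hUGT1/Atf4F/F mice was 0.73 and lost its call (adjusted p = 0.327), while that in hUGT1/Atf4ΔHep mice was 0.90 (adjusted p = 0.00618). Within hUGT1/Atf4ΔHep libraries of like Xist level the ratio of TCS to vehicle was 1.69 for the low pair and 2.04 for the high pair. The part of sex makeup in the hUGT1/Atf4F/F value was not otherwise tested. The call in hUGT1/Atf4F/F mice was also lost without either vehicle library (adjusted p = 0.117 without replicate 1 and 0.0667 without replicate 2) and in a fit of the 4 libraries of that genotype alone (0.0596), with log2 fold changes of 0.81, 0.92 and 0.86. The call in hUGT1/Atf4ΔHep mice was lost without either vehicle library (0.123 without replicate 1 and 0.112 without replicate 2) and without TCS replicate 2 (0.0698).

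Cyp3a59, a close paralog of Cyp3a25, read 111 and 124 CPM in the hUGT1/Atf4F/F vehicle libraries and 225 and 252 CPM in the TCS libraries. It read 112 and 108 CPM under vehicle and 198 and 185 CPM under TCS in hUGT1/Atf4ΔHep mice. The groups were well apart, and the rise was 2.03-fold in hUGT1/Atf4F/F mice (95% interval 1.78 to 2.31, log2 fold change 1.02 ± 0.083 SE, adjusted p = 0.00109) and 1.74-fold in hUGT1/Atf4ΔHep mice (95% interval 1.53 to 1.98, log2 fold change 0.80 ± 0.083 SE, adjusted p = 0.00429). Both calls held with the sex makeup as a covariate (adjusted p = 0.0386 and 0.00596). That in hUGT1/Atf4ΔHep mice was lost without vehicle replicate 1 (0.0727) or vehicle replicate 2 (0.0752). Reads on the 207 words of Cyp3a59 that also occur in Cyp3a25 could have been counted for either gene.

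Cyp3a25, a form of adult liver, read 472 and 486 CPM under vehicle and 630 and 800 CPM under TCS in hUGT1/Atf4F/F mice. Its levels in hUGT1/Atf4ΔHep mice were 466 and 441 CPM under vehicle and 599 and 602 CPM under TCS. The groups did not overlap in either genotype. The fold change was 1.49 in hUGT1/Atf4F/F mice (95% interval 1.27 to 1.75, adjusted p = 0.0544) and 1.32 in hUGT1/Atf4ΔHep mice (95% interval 1.13 to 1.55, adjusted p = 0.166), neither of them called by edgeR, and 1.41 in the average of both (95% interval 1.26 to 1.57, adjusted p = 0.0101), which was called. That call was lost with the sex makeup as a covariate (adjusted p = 0.0780) and without any 1 of the 4 hUGT1/Atf4ΔHep libraries (0.0544 without vehicle replicate 1, 0.0739 without vehicle replicate 2, 0.0569 without TCS replicate 1, 0.0573 without TCS replicate 2). Calls were gained by edgeR in each genotype with no filter beyond 1 count (adjusted p = 0.00374 and 0.0438), in hUGT1/Atf4F/F mice without TCS replicate 1 of that genotype (0.00201), and in hUGT1/Atf4ΔHep mice with the libraries of the comparison alone (0.0236) or without TCS replicate 1 (0.0208) or replicate 2 (0.0232) of hUGT1/Atf4F/F mice.

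Cyp3a13, the member outside the cluster, was not called in either genotype. It read 157 and 155 CPM under vehicle and 174 and 215 CPM under TCS in hUGT1/Atf4F/F mice, a fold change of 1.25 (95% interval 1.08 to 1.44, adjusted p = 0.300). In hUGT1/Atf4ΔHep mice it read 155 and 153 CPM under vehicle and 172 and 174 CPM under TCS, a fold change of 1.13 (95% interval 0.974 to 1.30, adjusted p = 0.528). TCS libraries lay above vehicle libraries in both genotypes. Without TCS replicate 1 of hUGT1/Atf4F/F mice it was called in that genotype, at a log2 fold change of 0.46 (adjusted p = 0.0244).

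**Figure D3:**
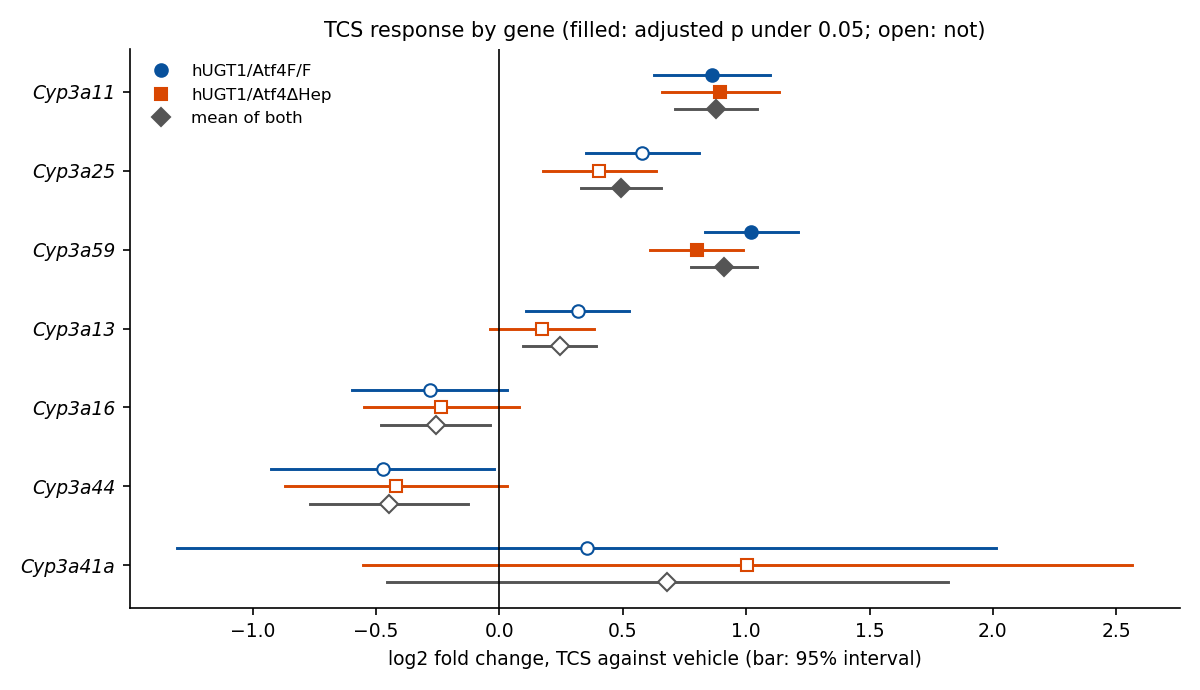
Log2 fold change of TCS against vehicle for the 7 members tested (points) with 95% intervals (lines), in hUGT1/Atf4F/F mice (blue circles), hUGT1/Atf4ΔHep mice (orange squares) and averaged over both (grey diamonds), filled where the adjusted p was under 0.05. Cyp3a11 and Cyp3a59 are filled throughout, with values of 0.80 to 1.02, Cyp3a25 is filled for the average at 0.49, and the points of Cyp3a16 and Cyp3a44 lie between -0.24 and -0.47.

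No form tied to neonatal or female liver was called in either genotype. Cyp3a16 read 468 and 461 CPM under vehicle and 328 and 436 CPM under TCS in hUGT1/Atf4F/F mice. Its levels in the other genotype, hUGT1/Atf4ΔHep, were 609 and 488 CPM under vehicle and 448 and 483 CPM under TCS. TCS libraries lay below vehicle libraries within each genotype, by little in the last case. The log2 fold change was -0.28 ± 0.14 SE in hUGT1/Atf4F/F mice (95% interval -0.60 to 0.033, adjusted p = 0.561) and -0.24 ± 0.14 SE in hUGT1/Atf4ΔHep mice (95% interval -0.55 to 0.079, adjusted p = 0.564), and neither was called.

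Cyp3a44 read 140 and 142 CPM under vehicle and 77.7 and 125 CPM under TCS in hUGT1/Atf4F/F mice. In hUGT1/Atf4ΔHep mice it read 213 and 180 CPM under vehicle and 129 and 164 CPM under TCS. Again the TCS libraries were the lower ones within each genotype, and again no test was passed, with a log2 fold change of -0.47 ± 0.20 SE in hUGT1/Atf4F/F mice (95% interval -0.93 to -0.020, adjusted p = 0.492) and of -0.42 ± 0.20 SE in hUGT1/Atf4ΔHep mice (95% interval -0.87 to 0.029, adjusted p = 0.471). The intervals of both genes reach from clear decreases to about no change. Without TCS replicate 2 of hUGT1/Atf4F/F mice the average over both genotypes was called for Cyp3a44, at -0.64 (adjusted p = 0.0205), against -0.45 with all libraries (adjusted p = 0.149).

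Cyp3a41a, a female-typical form in adult liver, varied widely between libraries of 1 group. It read 17.7 and 7.35 CPM under vehicle and 6.76 and 25.6 CPM under TCS in hUGT1/Atf4F/F mice, and 29.0 and 15.2 CPM under vehicle and 19.3 and 67.5 CPM under TCS in hUGT1/Atf4ΔHep mice. The groups overlapped in both genotypes. The log2 fold change was 0.35 ± 0.73 SE in hUGT1/Atf4F/F mice (adjusted p = 0.923) and 1.01 ± 0.69 SE in hUGT1/Atf4ΔHep mice (adjusted p = 0.628), with 95% intervals of -1.30 to 2.01 and -0.55 to 2.56. Within hUGT1/Atf4ΔHep mice the library with the high Xist level had the higher Cyp3a41a level in each group, but in hUGT1/Atf4F/F mice TCS replicate 1, with 718 CPM of Xist, had the lowest level of all 8 libraries. With the sex makeup as a covariate the value in hUGT1/Atf4F/F mice turned to -1.51 and that of the average to -0.25, neither called.

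TCS libraries lay wholly above vehicle libraries in both genotypes for 4 of the 7 members tested, Cyp3a11, Cyp3a13, Cyp3a25 and Cyp3a59, and wholly below them for 2, Cyp3a16 and Cyp3a44. Among all genes tested, 9.48% lay above and 7.65% lay below in this way. The makeup of the family moved with these values. Cyp3a11 made up 57.6% of the summed CPM per kb of the members in the hUGT1/Atf4F/F vehicle group and 67.7% in the TCS group, and 53.2% and 66.3% in hUGT1/Atf4ΔHep mice. Cyp3a16 made up 16.3% and 8.67% in hUGT1/Atf4F/F mice and 19.5% and 11.1% in hUGT1/Atf4ΔHep mice. These shares rest on the length used. Per kb of telling words Cyp3a41a read 461 ± 362 CPM per kb in the hUGT1/Atf4ΔHep TCS group. There Cyp3a16 read 286 ± 14.9 and Cyp3a25 351 ± 1.04 CPM per kb (SD, n = 2 each). The order of neighbours changed with the makeup. Cyp3a16 stood above Cyp3a25 under vehicle, with 270 and 267 against 236 and 243 CPM per kb in hUGT1/Atf4F/F mice, and below it under TCS, with 190 and 252 against 315 and 400 CPM per kb. In hUGT1/Atf4ΔHep mice Cyp3a16 read 352 and 282 against 233 and 221 CPM per kb for Cyp3a25 under vehicle, and 259 and 279 against 300 and 301 CPM per kb under TCS. Cyp3a44 and Cyp3a59 changed places in the same way, from 71.7 ± 0.783 against 59.0 ± 4.49 CPM per kb to 51.6 ± 17.0 against 120 ± 9.71 CPM per kb in hUGT1/Atf4F/F mice, and from 100 ± 11.9 against 55.2 ± 1.62 CPM per kb to 74.7 ± 12.6 against 96.1 ± 4.77 CPM per kb in hUGT1/Atf4ΔHep mice (SD, n = 2 each). Per kb of telling words the hUGT1/Atf4F/F vehicle libraries of Cyp3a16 (287 and 283 CPM per kb) and Cyp3a25 (276 and 284 CPM per kb) overlapped, so that the higher place of Cyp3a16 in that group rests on the length used. These orders are descriptions, and no test was run between genes.

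**Figure D4:**
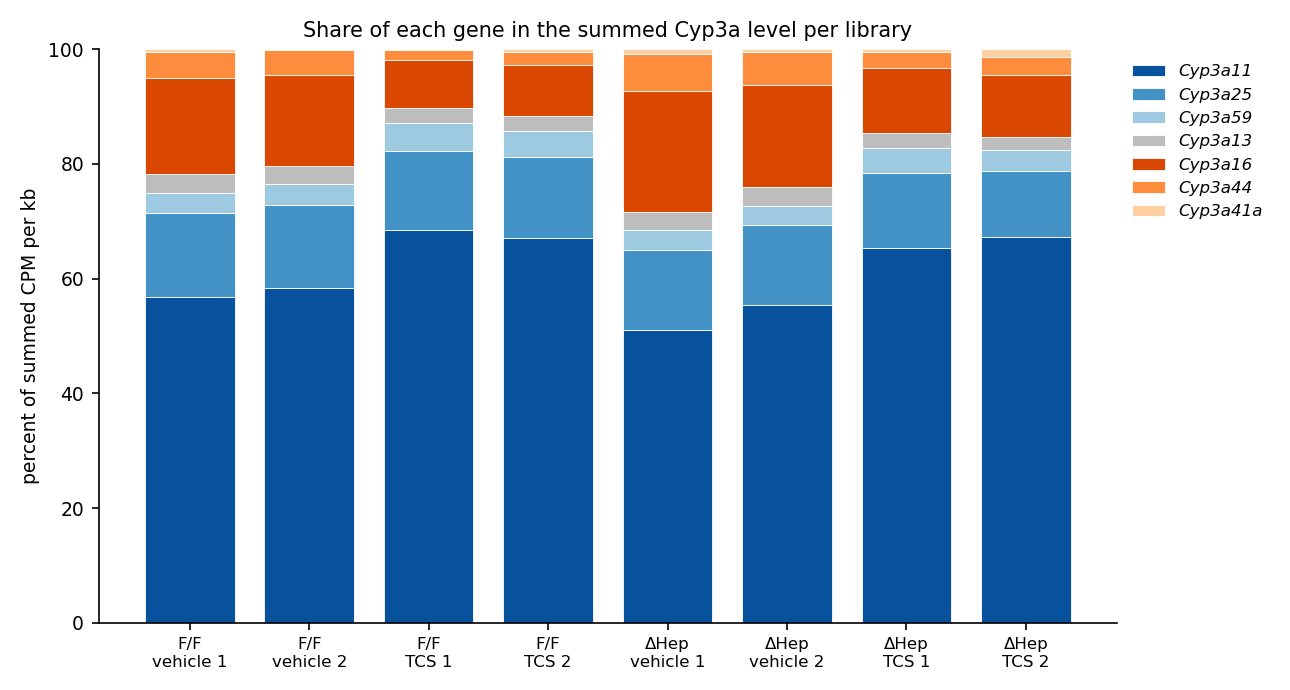
Percent of the summed CPM per kb that each member made up in each library, stacked to 100. The dark blue share of Cyp3a11 is larger in each TCS library than in each vehicle library, and the dark orange share of Cyp3a16 is smaller, with group values of 16.3% and 8.67% in hUGT1/Atf4F/F mice and 19.5% and 11.1% in hUGT1/Atf4ΔHep mice.

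Deletion of hepatocyte Atf4 gave no called difference in any member. Under vehicle 0 of 7 members tested were called by edgeR, beside 0.022% of all genes, 1 had an unadjusted p under 0.05, and DESeq2 called 0, beside 0.0367%. Under TCS 0 of 7 were called, beside 0.022% of all genes, 3 had an unadjusted p under 0.05, and DESeq2 called 0, beside 0.0513%. The comparisons under vehicle and under TCS reuse the libraries of the comparisons of TCS with vehicle. Cyp3a11 differed by -0.13 ± 0.10 SE under vehicle (95% interval -0.36 to 0.10) and by -0.096 ± 0.10 SE under TCS (95% interval -0.33 to 0.14) on the log2 scale. Cyp3a44 stood higher in hUGT1/Atf4ΔHep than in hUGT1/Atf4F/F mice under both treatments, though neither difference was called. It was higher by 0.48 ± 0.20 SE under vehicle (unadjusted p = 0.0381) and 0.54 ± 0.20 SE under TCS (unadjusted p = 0.0256) by edgeR, with adjusted p of 1.00 and 1. Cyp3a16 likewise stood higher under both, by 0.24 ± 0.14 SE (unadjusted p = 0.120) and 0.28 ± 0.14 SE (unadjusted p = 0.0707) by edgeR. Cyp3a59 was lower under TCS by 0.32 on the log2 scale, at -0.32 ± 0.082 SE (unadjusted p = 0.00388, adjusted p = 1 by edgeR), and Cyp3a25 differed by -0.25 ± 0.10 SE (unadjusted p = 0.0341 by edgeR).

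The response to TCS was not shown to depend on ATF4 in any member. For the interaction of TCS and genotype edgeR called 0 of 7 members, beside 0% of all genes, 0 members had an unadjusted p under 0.05, and DESeq2 called 0, beside 0%. Cyp3a11 responded by 0.034 more in hUGT1/Atf4ΔHep than in hUGT1/Atf4F/F mice on the log2 scale (95% interval -0.30 to 0.36), which as a ratio of the responses runs from 0.814 to 1.29. The difference was -0.22 for Cyp3a59 (95% interval -0.49 to 0.042), -0.17 for Cyp3a25 (95% interval -0.50 to 0.15), -0.14 for Cyp3a13 (95% interval -0.44 to 0.15), 0.047 for Cyp3a16 (95% interval -0.40 to 0.49) and 0.053 for Cyp3a44 (95% interval -0.58 to 0.69). For Cyp3a41a the interval ran from -1.62 to 2.92 and leaves almost any difference possible.

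Around the family, 5 of the 10 tested genes in a list of 11 others known to be induced through PXR were called in each genotype, all higher, beside 0.513% and 0.616% of all genes. DESeq2 called 6 in each. The median log2 fold change of the 10 was 1.14 in hUGT1/Atf4F/F mice and 1.13 in hUGT1/Atf4ΔHep mice, and the 5 that edgeR did not call ranged from -0.071 to 1.52 and from 0.021 to 1.14. Cyp2b10, a P450 induced mainly through CAR, rose by 2.88 ± 0.20 SE in hUGT1/Atf4F/F mice (adjusted p = 0.000817) and by 2.86 ± 0.20 SE in hUGT1/Atf4ΔHep mice. Abcc3, an exporter of conjugates, rose by 1.42 ± 0.11 SE and 1.48 ± 0.11 SE, and Ces2a, a carboxylesterase, by 1.15 ± 0.087 SE and 1.12 ± 0.087 SE. These 3 had the smallest adjusted p of the list in hUGT1/Atf4F/F mice and do not stand for all of it.

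Of 20 listed receptors and liver transcription factors that act on Cyp3a genes, 0 were called in hUGT1/Atf4F/F mice by edgeR, beside 0.557% of all genes. There 4 had an unadjusted p under 0.05 and DESeq2 called 0. In hUGT1/Atf4ΔHep mice edgeR called 1, beside 0.675% of all genes, and in the average 1, beside 2.59%. Nr1i2, which encodes PXR, read 88.7 and 75.1 CPM under vehicle and 97.8 and 89.4 CPM under TCS in hUGT1/Atf4F/F mice, a log2 fold change of 0.19 ± 0.095 SE. Nr1i3, which encodes CAR, was the gene called in hUGT1/Atf4ΔHep mice, where it read 174 and 158 CPM under vehicle and 246 and 222 CPM under TCS (log2 fold change 0.49 ± 0.079 SE, adjusted p = 0.0332 by edgeR). In hUGT1/Atf4F/F mice its log2 fold change was 0.13 ± 0.078 SE (adjusted p = 0.623). The interaction of TCS and genotype for Nr1i3, at 0.36 ± 0.11 SE, was not called. In the average of both genotypes Nr1i3 was called, at 0.31 ± 0.056 SE (adjusted p = 0.0247 by edgeR). Among the listed genes with the smallest adjusted p in hUGT1/Atf4F/F mice were Nr0b2, a repressor without a DNA-binding domain (0.35 ± 0.11 SE), and the pioneer factor Foxa1 (0.54 ± 0.20 SE), neither of them called.

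Among 14 genes of electron supply to P450 enzymes and of haem synthesis, 1 was called by edgeR in each genotype, beside 0.557% and 0.675% of all genes, and 3 in the average. DESeq2 called 2 in hUGT1/Atf4F/F mice, 3 in hUGT1/Atf4ΔHep mice and 3 in the average. The gene called by edgeR in each was Pgrmc1, a haem-binding protein that supports P450 enzymes, which rose by 0.33 ± 0.056 SE (adjusted p = 0.0457) in hUGT1/Atf4F/F mice and by 0.38 ± 0.056 SE (adjusted p = 0.0231) in hUGT1/Atf4ΔHep mice by edgeR. Por, the reductase on which all microsomal P450 enzymes depend, read 640 and 708 CPM under vehicle and 875 and 1112 CPM under TCS in hUGT1/Atf4F/F mice, and 630 and 636 CPM and 941 and 869 CPM in hUGT1/Atf4ΔHep mice. Its groups did not overlap, yet its log2 fold change of 0.56 ± 0.11 SE in hUGT1/Atf4F/F mice missed the threshold (adjusted p = 0.0904), as did that of 0.52 ± 0.11 SE in hUGT1/Atf4ΔHep mice (adjusted p = 0.0953). In the average of both Por was called, at 0.54 ± 0.077 SE (adjusted p = 0.00937).

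Perinatal genes of liver, which share the early timing ascribed to Cyp3a16, were 6 in number, and 0 were called in either genotype by edgeR (3 in hUGT1/Atf4F/F and 2 in hUGT1/Atf4ΔHep mice with an unadjusted p under 0.05) or by DESeq2. Igf2, the fetal growth factor gene, stood at -1.52 ± 0.53 SE in hUGT1/Atf4F/F mice and at -2.03 ± 0.54 SE in hUGT1/Atf4ΔHep mice on the log2 scale. It was called lower in the average (-1.78 ± 0.38 SE, adjusted p = 0.0497 by edgeR), the 1 of 6 that was, beside 2.59% of all genes. DESeq2 called 3 there, beside 3.58% of all genes. H19, the imprinted neighbour of Igf2, stood at -1.20 ± 0.42 SE and -1.55 ± 0.43 SE, and Mest at -0.49 ± 0.16 SE and -0.31 ± 0.16 SE. Igf2, H19 and Mest had the smallest adjusted p of the list in hUGT1/Atf4F/F mice and do not stand for all of it. Of the 6 genes, 2 had a log2 fold change above 0 in hUGT1/Atf4F/F mice and 0 in hUGT1/Atf4ΔHep mice, with medians of -0.49 and -0.92. Sums of markers of some other cells did not overlap between treatments. Of all genes tested, 19% lay wholly lower with TCS and 19.7% wholly higher in hUGT1/Atf4F/F mice, and 21.5% each way in hUGT1/Atf4ΔHep mice. For TCS, edgeR called 0 of these markers in either genotype, beside 0.557% and 0.675% of all genes. DESeq2 called 1 intestinal marker in hUGT1/Atf4F/F mice, and 3 pancreatic acinar markers and 1 stellate cell marker in hUGT1/Atf4ΔHep mice. The 6 endothelial markers summed to 526 to 622 CPM under vehicle and 471 to 508 CPM under TCS in hUGT1/Atf4F/F mice. In hUGT1/Atf4ΔHep mice they summed to 485 to 570 CPM and 465 to 479 CPM. The sum of 6 markers of small intestine epithelium was likewise lower with TCS without overlap in both genotypes. Most of that sum was Fabp2, at 52.9 to 64.4 CPM, and Apoa4, at 21.2 to 58.9 CPM. Of these 6 markers, 0 were at 0 under vehicle and 3 under TCS in hUGT1/Atf4F/F mice, and 1 and 2 in hUGT1/Atf4ΔHep mice. In hUGT1/Atf4ΔHep mice alone the sums for macrophages, stellate cells and erythroid cells were lower without overlap. Of the 7 erythroid markers, 3 were at 0 in each group, the globin genes Hbb-bt, Hbb-bs and Hba-a1, while Alas2 read 32.0 to 58.3 CPM. Why the globin genes had no count was not tested. The 7 neutrophil markers summed to 29.1 to 32.8 CPM under vehicle and 17.3 to 17.7 CPM under TCS in hUGT1/Atf4F/F mice. In hUGT1/Atf4ΔHep mice they overlapped, at 25.7 to 33.8 CPM and 12.3 to 26.7 CPM. The 7 pancreatic acinar markers summed to 10.9 to 12.1 CPM under vehicle and 67.2 to 74.3 CPM under TCS in hUGT1/Atf4ΔHep mice. In hUGT1/Atf4F/F mice they overlapped, at 6.64 to 33.3 CPM and 29.1 to 40.6 CPM. In each group 1 of the 7 acinar markers, Amy2a5, was at 0. Their part in the values of the members was not tested.

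Across the 8 libraries some pairs of members followed each other closely. Pearson's r of log2 CPM, given as a description over libraries that share the 4 groups and their scaling, was 0.97 for Cyp3a16 with Cyp3a44, 0.97 for Cyp3a13 with Cyp3a25 and 0.97 for Cyp3a11 with Cyp3a59, and -0.55 for Cyp3a11 with Cyp3a16. Outside the family, among genes with a mean of at least 1 CPM, the patterns most like that of Cyp3a11 were those of Hsd17b4 (r = 0.996), an enzyme of peroxisomal beta-oxidation, Aldh3a2 (r = 0.994), a fatty aldehyde dehydrogenase, and Entpd5 (r = 0.993), a nucleoside diphosphatase of the endoplasmic reticulum. Por was among the 3 genes most like Cyp3a25 (r = 0.974), beside Echs1 and Agpat6. The pattern of Cyp3a59 was most like Fcgrt, Gm4952 and Mrps5 (r = 0.986 to 0.988), and that of Cyp3a13 most like Sytl1, Anpep and Ppp2r1b (r = 0.962 to 0.976). Cyp3a16 and Cyp3a44 had the same 3 nearest genes, Gramd1c, Nsmf and Ick (r = 0.959 to 0.988). For Cyp3a41a the nearest was Cyp2a4 (r = 0.977), a steroid hydroxylase known for its higher level in female mouse liver, followed by Hspa4l and Tstd3.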

How the data were processed

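Liver RNA of 8 libraries in 4 groups, prepared by the submitters with a stranded mRNA kit, was analysed from the raw counts per gene symbol deposited by the authors. The submitters' processing notes name STAR 2.7.9a, bcl2fastq 2.20 and the build mm10. Not given in the sources used here are the counter, its annotation and its handling of shared reads. Further deposited tables hold scaled counts and the authors' own fold changes and p-values, and were not used.

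The tests were run with edgeR 4.0.16 and limma 3.58.1 under R 4.3.3. Genes passed filterByExpr (count minimum 10, total minimum 15), which kept 13633 of 24411. TMM factors, 1 mean per group over all 8 libraries and quasi-likelihood tests were used, with 4 residual degrees of freedom, adjustment by Benjamini and Hochberg over all genes tested and a threshold of 0.05. Standard errors are the log2 fold change over the square root of F, and intervals are at 95%. With 2 libraries per group the spread between pools limits precision more than depth does, and p-values measure the spread between these pools. Libraries of 1 group differed by chi-square values of 7.48 to 16.8 per gene, so none was counted as a repeat of another. The procedure was tested on simulated data.

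Transcripts came from GENCODE M21 and promoter windows from RefSeq, read with Biopython 1.88 in Python 3.11.15; plots used matplotlib 3.10.9. Named genes were the members, other Cyp3a symbols, up to 3 genes of each list described with the smallest adjusted p for TCS in hUGT1/Atf4F/F mice plus Nr1i2, Nr1i3 and Por, and the 3 genes most like each member. The members were taken by symbol, but they and the lists were chosen as a subject with earlier results of these data known. Alternatives were RLE factors, no filter beyond 1 count, DESeq2 1.42.0, the libraries of a comparison alone, a replicate block, an adjusted p under 0.01, a covariate for sex makeup (4 Y-linked genes), each library left out, CPM on plain library totals and other lengths for levels per kb.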

Additional observations from a re-analysis of the deposited data

How the results depend on the processing

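The count of members called moved with several choices. With all libraries it was 2 for TCS in hUGT1/Atf4F/F mice, 2 in hUGT1/Atf4ΔHep mice and 3 in the average of both. No filter beyond 1 count gave 5 in the average. In hUGT1/Atf4F/F mice the sex makeup covariate and the libraries of the comparison alone each gave 1. With each library left out in turn, the counts ran from 1 to 4 in hUGT1/Atf4F/F mice, from 0 to 3 in hUGT1/Atf4ΔHep mice and from 2 to 4 in the average, and they stayed at 0 for the deletion and the interaction. The cause of these moves was not tested. Only the fits with a library left out and those of the comparison alone rested on fewer samples. Over all genes, the calls for TCS in hUGT1/Atf4F/F mice numbered 76 by the fit reported, 139 with no filter, 166 with DESeq2, 35 at an adjusted p under 0.01, 33 with the libraries of the comparison alone and 20 with the sex makeup covariate, and those in hUGT1/Atf4ΔHep mice 92, 200, 221, 40, 189 and 91. In the average over both genotypes they numbered 353 by the fit reported, 538 with no filter, 108 at an adjusted p under 0.01 and 111 with the sex makeup covariate. Directions turned only for values near 0 or for Cyp3a41a. With the sex makeup covariate Cyp3a41a read -1.51 for TCS in hUGT1/Atf4F/F mice, -0.36 for the deletion under vehicle and -0.25 for the average. With libraries left out, Cyp3a41a ran from -0.91 to 1.14 for TCS in hUGT1/Atf4F/F mice, from -0.20 to 1.61 in hUGT1/Atf4ΔHep mice and from -0.55 to 1.92 for the interaction. The interaction ran from -0.096 to 0.18 for Cyp3a11, -0.29 to 0.017 for Cyp3a13, -0.14 to 0.27 for Cyp3a16, -0.33 to 0.0070 for Cyp3a25 and -0.25 to 0.43 for Cyp3a44, and Cyp3a11 for the deletion under TCS from -0.23 to 0.047. Of 616 fold changes of members recomputed, 566 kept their direction and side of the threshold, 15 lost a call, 14 gained one and 21 turned. Replicate numbers were not taken as pairs in the fit reported. Deviations of libraries of the same number correlated at 0.34 between the genotypes under vehicle and 0.37 under TCS. Between treatments they correlated at -0.43 to -0.11. What lay behind these values was not tested. The replicate block changed no call of a member, with 64 genes called in hUGT1/Atf4F/F and 72 in hUGT1/Atf4ΔHep mice.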

Other observations

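Other lists tied to the family are given here with their calls for TCS, beside 0.557% of all genes called by edgeR in hUGT1/Atf4F/F mice, 0.675% in hUGT1/Atf4ΔHep mice and 2.59% in the average of both. Of 10 pericentral hepatocyte genes, the zone where Cyp3a genes are mostly used, 1 was called by edgeR in each genotype, Oat, an ornithine aminotransferase, which rose by 0.70 on the log2 scale in hUGT1/Atf4F/F mice (adjusted p = 0.0154) and by 0.91 in hUGT1/Atf4ΔHep mice (adjusted p = 0.00429). DESeq2 called 2 of these 10 in each genotype, and in the average edgeR called 3, all higher, and DESeq2 5. Of 7 periportal genes tested, 0 were called by edgeR in either genotype (3 and 2 with an unadjusted p under 0.05) and 0 by DESeq2, while in the average each tool called 1, lower by edgeR. Of 6 genes known to rise after birth, 0 were called by edgeR in either genotype (2 and 3 with an unadjusted p under 0.05), DESeq2 called 1 in each, each tool called 1 in the average, higher by edgeR, and the median log2 fold changes were 0.15 and 0.23. Of 9 genes of growth hormone signalling and its targets, which set the sex difference of several Cyp3a forms in adult mice, 0 were called by edgeR in either genotype (1 and 0 with an unadjusted p under 0.05) and 0 by DESeq2, and neither tool called any in the average (1 with an unadjusted p under 0.05 by edgeR).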
